A study of Mus musculus with 24 samples.

Results

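The 51 genes described here encode proteins of the lysosome, and were taken by name from a table of read counts for 35275 genes in mouse liver. They comprise 33 acid hydrolases (13 proteases, 11 glycosidases, 5 sulfatases and 4 lipid hydrolases), 3 soluble lipid-binding cofactors (Psap, Gm2a and Npc2), 8 proteins of the lysosomal membrane, and 7 subunits or accessory proteins of the proton pump. All 51 symbols were found in the table, each in 1 row. The samples were 24 RNA-seq libraries, 4 from each of 6 genotypes, made from livers of C57BL/6 males 8 to 10 weeks old that had been fasted for 24 h. Control livers, labelled wild type, came per the study's methods from littermates that carry the floxed alleles without Cre. Tsc1 L-/- livers lacked Tsc1 in hepatocytes, Cpt2 L-/- livers lacked Cpt2 in hepatocytes, and Tsc1Cpt2 L-/- livers (DKO) lacked both. In these animals Cre was driven by the Albumin promoter, so the deletions were directed to hepatocytes, and other liver cells kept both genes. PPAR-a KO livers and Cpt2L-/- Ppara KO livers are named in the labels only, and how their Ppara allele was made is not given in the sources used here. The labels do not state that each library came from a separate animal, so the p-values measure the spread between these libraries.

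Lysosomes break down proteins, glycans, lipids and nucleic acids delivered by endocytosis and autophagy, and their hydrolases work best in the acid lumen that the vacuolar proton pump maintains. Tsc1 restrains mTORC1, a kinase complex at the lysosomal surface that promotes growth and restrains autophagy. mTORC1 also phosphorylates Tfeb and Tfe3, transcription factors that bind the sequence CACGTG in many lysosomal promoters, and phosphorylated Tfeb is held in the cytosol. Cpt2 is the mitochondrial enzyme that readies long-chain fatty acids for oxidation, and Ppara is the nuclear receptor that induces fatty acid oxidation genes in the fasted liver.

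The libraries held 14470968 to 20371204 counted reads. Tsc1 was at 38.1 ± 1.39 CPM (SD, n = 4; read counts scaled to the size of the library) in control livers and 24.4 ± 4.49 CPM in Tsc1 L-/- livers, and it was lower there (log2 fold change -0.65 ± 0.13 (SE), adjusted p = 0.00491, edgeR) and in DKO than in Cpt2 L-/- livers (log2 fold change -1.52 ± 0.13 (SE), adjusted p = 1.1e-06, edgeR). Ppara was lower in PPAR-a KO than in control livers (log2 fold change -3.23 ± 0.41 (SE), adjusted p = 0.000586, edgeR) and in Cpt2L-/- Ppara KO than in Cpt2 L-/- livers (log2 fold change -2.65 ± 0.34 (SE), adjusted p = 0.00173, edgeR). The Cpt2 row did not show its deletion in the libraries labelled Cpt2 L-/-, which were at 92.3 ± 10.1 CPM against 97.6 ± 6.84 CPM in control livers (log2 fold change -0.11 ± 0.14 (SE), adjusted p = 0.605, edgeR), and counts per gene do not show whether the floxed exons were lost. Cpt2 was lower in DKO than in Tsc1 L-/- livers (log2 fold change -0.53 ± 0.14 (SE), adjusted p = 0.00819, edgeR), but Tsc1 L-/- livers in turn exceeded control livers (log2 fold change 0.51 ± 0.14 (SE), adjusted p = 0.0374, edgeR), and its log2 fold change was -0.02 ± 0.14 (SE, adjusted p = 0.929, edgeR) in DKO against control and -0.01 (adjusted p = 0.989, edgeR) in Cpt2L-/- Ppara KO against PPAR-a KO livers. The deletion of Cpt2 is therefore taken from the labels and from the study, which reports loss of Cpt2 protein by Western blot in its models. For the Cpt2L-/- Ppara KO livers it is taken from the labels only. The summed level of 10 hepatocyte marker genes, Alb among them, was 64076 to 84232 CPM in control livers, and the 14 markers of Kupffer cells and other macrophages summed to 414 to 665 CPM. In these bulk samples, fewer cells of a type and less RNA per cell cannot be told apart. Among the Cpt2L-/- Ppara KO libraries, library 1 had the highest level of Lipa, Cd63 and Npc2 and the lowest of Gaa, Man2b1, Tcirg1 and Atp6v0a1.

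Per length of transcript, cathepsin L was the most abundant of the 51 genes in control livers. In FPKM, a level scaled by gene length and library size, Ctsl was at 382 ± 97.8 (SD, n = 4), Psap, the precursor of the saposins, at 279 ± 14.4, and Lamp1, a heavily glycosylated membrane protein, at 259 ± 7.83. Ctsd, the aspartic protease cathepsin D, Lamp2 and Ctsz followed at 196 ± 8.95, 196 ± 19.6 and 189 ± 12.8 FPKM, and these 3 levels lay within their spread of each other. The lowest levels were those of Ctsk, the collagen-degrading cathepsin of bone, at 1.11 ± 0.181 FPKM, of Atp6v0d2 at 1.25 ± 0.530 FPKM and of Gla at 1.49 ± 0.345 FPKM. Among the subunits of the proton pump, Atp6v0d1 was the highest at 38.7 ± 2.21 FPKM. Its paralog Atp6v0d2 supplies the same position of the pump mainly in osteoclasts and macrophages.

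Because many members moved together between genotypes, the DNA just upstream of their start sites was read from RefSeq promoter sequences (GRCm38.p6), which held 44 of the 51 members. The window ran from 250 bases before to 50 bases after the start. The palindrome CACGTG, which reads the same on both strands, was present in 16 of these 44 members (36.4%) and in 2187 of all 27025 genes of the same promoter table (8.09%). The longer palindrome TCACGTGA, which contains CACGTG, was present in 7 members (15.9%) and in 1.12% of all genes. The 6 stretches below are examples that hold the longer palindrome or repeated CACGTG upstream of the start, in members called in a comparison for Tsc1 or Cpt2. Ctsd, with 2 copies that lie far apart, and Atp6v0d1, with a copy across its start, also hold the longer palindrome and are not shown. They are printed 5′ to 3′ on the strand of the gene with each CACGTG in capitals. Lamp1 lies at chr8:13159080-13159160 (forward strand), Gla at chrX:134601174-134601252 (reverse strand), Ctsa at chr2:164833741-164833772 (forward strand), Mcoln1 at chr8:3500428-3500499 (forward strand), Cln3 at chr7:126583332-126583405 (reverse strand) and Atp6v1a at chr16:44139365-44139410 (reverse strand).
Lamp1: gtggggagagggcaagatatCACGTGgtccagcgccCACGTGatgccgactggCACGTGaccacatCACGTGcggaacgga
Gla: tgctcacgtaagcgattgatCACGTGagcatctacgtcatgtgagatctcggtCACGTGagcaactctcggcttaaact
Ctsa: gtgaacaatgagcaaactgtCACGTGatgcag
Mcoln1: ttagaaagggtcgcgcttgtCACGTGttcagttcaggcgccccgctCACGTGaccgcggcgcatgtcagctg
Cln3: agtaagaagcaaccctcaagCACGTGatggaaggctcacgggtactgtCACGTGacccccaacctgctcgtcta
Atp6v1a: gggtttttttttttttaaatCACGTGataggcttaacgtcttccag

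Lamp1 had 4 copies of CACGTG within 81 bases, Gla, Mcoln1 and Cln3 had 2 each and Atp6v1a had 1. Ctsa had 1 before its start, shown here, and another just after it. Of the 12 members with a promoter sequence that were higher in both comparisons for loss of Tsc1 below, 4 held CACGTG, as did 12 of the other 32 members. No test of a difference between these shares was made. Ctsb, Ctsh, Galns, Asah1, Npc1, Atp6v0d2 and Atp6v1h had no entry in the promoter table.

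In each of the comparisons for loss of Tsc1, 12 of 33 lysosomal hydrolases and the major membrane protein Lamp1 were higher. In Tsc1 L-/- against control livers 16 of the 51 members were higher and none was lower at an adjusted p under 0.05 (edgeR's quasi-likelihood test, adjusted over all 13641 genes tested). At an unadjusted p under 0.05, 25 members were higher and 1 lower. The share of all genes at an unadjusted p was not counted, here or in the comparisons below. DESeq2, which called 9.82% of all genes, called 20 members higher and none lower. Over all genes edgeR called 6.64% at an adjusted p under 0.05, 4.16% as higher and 2.48% as lower. By class, 12 of 33 hydrolases, 2 of 3 cofactors, 2 of 8 membrane proteins and none of 7 pump subunits were called. The median log2 fold change was 0.30 over the hydrolases and 0.28 over the pump subunits, against 0.01 over all genes tested. DKO against Cpt2 L-/- livers asks the same question on the other background and shares no library with the first comparison. There 22 members were higher and 1 was lower, against 18.3% of all genes called, 10.9% as higher and 7.40% as lower. The calls comprised 12 hydrolases higher and 1 lower, 2 cofactors, 3 membrane proteins and 5 of 7 pump subunits. The hydrolase called lower was Ctss, cathepsin S of antigen-presenting cells (log2 fold change -0.66 ± 0.22 (SE), adjusted p = 0.0421, edgeR), whose groups overlapped and whose call was lost without Cpt2 L-/- library 1 or 4 or DKO library 2 or 4. Of 14 markers of Kupffer cells and other macrophages, 10 were lower and none higher in the same comparison, as were 2 of 8 markers of stellate cells and fibroblasts and 2 of 7 of endothelial cells. Of 10 hepatocyte markers 2 were lower and 1 higher there, with a sum of 29377 to 36852 CPM in DKO livers against 37906 to 61026 CPM in Cpt2 L-/- livers, which did not overlap, and of 9 genes of lipid-associated macrophages 2 were higher and 1 lower. The part of these cells in the members' levels was not tested. In Tsc1 L-/- against control livers none of the 14 macrophage markers was called by edgeR or DESeq2 or had an unadjusted p under 0.05, and 1 of the 10 hepatocyte markers was lower and none higher, with a sum of 44279 to 68300 CPM against 64076 to 84232 CPM in control livers. The 8 markers of stellate cells and fibroblasts summed to 171 to 253 CPM against 263 to 354 CPM, without overlap. The part of these cells was not tested there either.

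**Figure D1:**
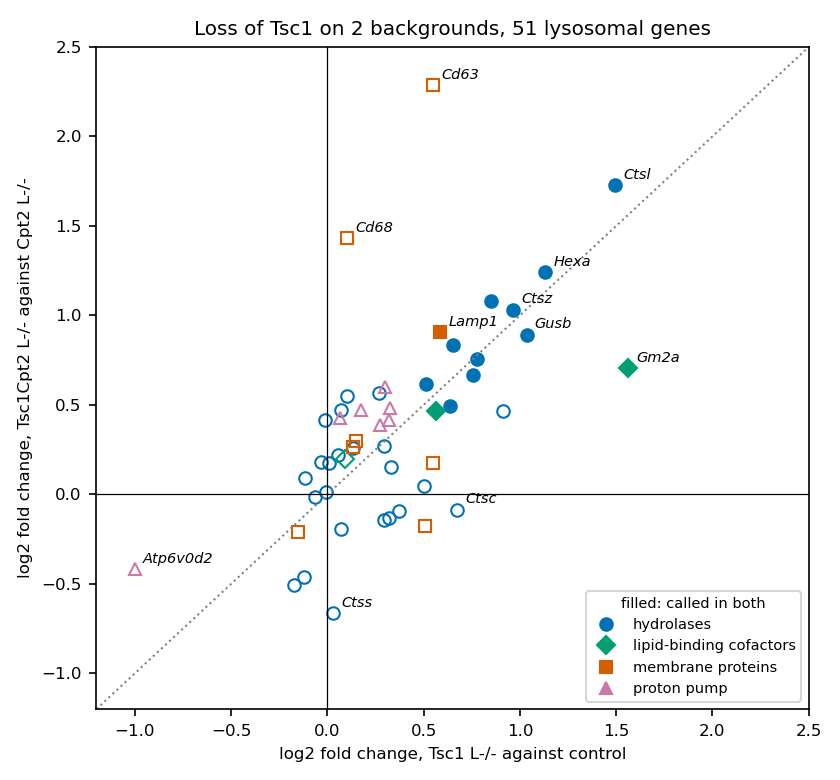
Log2 fold change (edgeR) of 51 lysosomal genes in Tsc1 L-/- against control livers (horizontal axis) and in DKO, titled Tsc1Cpt2 L-/-, against Cpt2 L-/- livers (vertical axis), 4 libraries per group; filled symbols were called in both, colours and shapes give the class, and the dotted line marks equal values. The 13 filled points lie above 0 on both axes, and Cd63 and Cd68 lie well above the line.

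All 51 members passed the filter on low counts in this fit of 16 libraries. Across the 51 genes the log2 fold changes of these comparisons had the same sign for 40 genes, with a Pearson r of 0.61 and a Spearman rho of 0.64, given as a description across genes, which are not independent replicates. The 13 members called higher in both were Ctsa, Ctsb, Ctsl, Ctsz, Tpp1, Gla, Gusb, Hexa, Neu1, Ppt1, Gm2a, Npc2 and Lamp1. They made up 13 of the 16 higher in Tsc1 L-/- livers and 13 of the 22 higher in DKO livers. Arsb, Galns and Mcoln1 were called only in the first comparison, and 9 members only in the second. Whether these differed between the backgrounds is the test of the interaction below.

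Ctsl, which encodes the cysteine protease cathepsin L, was the hydrolase with the largest rise in both. Its level in the 4 libraries was 875, 1037, 449.5 and 812 CPM in control livers and 3117, 2986, 1002 and 1854 CPM in Tsc1 L-/- livers (log2 fold change 1.49 ± 0.33 (SE), adjusted p = 0.0112, edgeR). The lowest Tsc1 L-/- library lay below the highest control library, so these groups overlapped. In Cpt2 L-/- livers Ctsl was at 1716, 1379, 813 and 1129.5 CPM and in DKO livers at 3607, 3911, 5175 and 3829 CPM, with every DKO library above every Cpt2 L-/- library (log2 fold change 1.73 ± 0.33 (SE), adjusted p = 0.00231, edgeR). By annotation, 26.8% of the exon bases of Ctsl are shared with a gene on the opposite strand, and the strand setting of the counting is not given in the sources used here.

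Ctsz, the carboxypeptidase cathepsin Z, was at 286, 316, 239 and 298 CPM in control livers and 633, 578, 459 and 558 CPM in Tsc1 L-/- livers. It was at 345, 393, 346 and 411 CPM in Cpt2 L-/- livers and 671, 896, 763 and 690.4 CPM in DKO livers. The groups did not overlap in either comparison, and the rise was 1.95-fold (log2 fold change 0.96 ± 0.14 (SE), adjusted p = 0.000263) and 2.04-fold (log2 fold change 1.03 ± 0.14 (SE), adjusted p = 0.000104, edgeR). Ctsb, cathepsin B, was at 526, 564, 459 and 502 CPM in control livers and 1231, 693, 902 and 644 CPM in Tsc1 L-/- livers, a rise carried by all 4 libraries and highest in library 1. With Cpt2 absent it went from 453, 437, 479 and 529.9 CPM to 744, 797, 783 and 651 CPM, again without overlap. The log2 fold change of Ctsb was 0.76 ± 0.17 (SE, adjusted p = 0.0108) and 0.67 ± 0.17 (SE, adjusted p = 0.0111, edgeR). Tpp1, a tripeptidyl peptidase, went from 93.7, 109, 107 and 106 CPM to 196, 139, 153 and 166 CPM with loss of Tsc1 alone. It was at 108, 100.5, 107 and 119.6 CPM in Cpt2 L-/- livers and 181, 218, 174 and 192 CPM in DKO livers. Tpp1 thus rose 1.57-fold (adjusted p = 0.00168) and 1.78-fold (adjusted p = 0.000128, edgeR), with no overlap of the groups. Ctsa, the carboxypeptidase that stabilises the sialidase Neu1 in a complex, was at 149, 137, 135 and 139 CPM in control livers and 221, 240.1, 202 and 207 CPM in Tsc1 L-/- livers. It was at 176, 183, 166 and 158 CPM in Cpt2 L-/- livers and 229.8, 257, 232 and 232 CPM in DKO livers, again without overlap. Ctsa rose 1.55-fold (adjusted p = 0.000659) and 1.41-fold (adjusted p = 0.00244, edgeR).

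**Figure D2:**
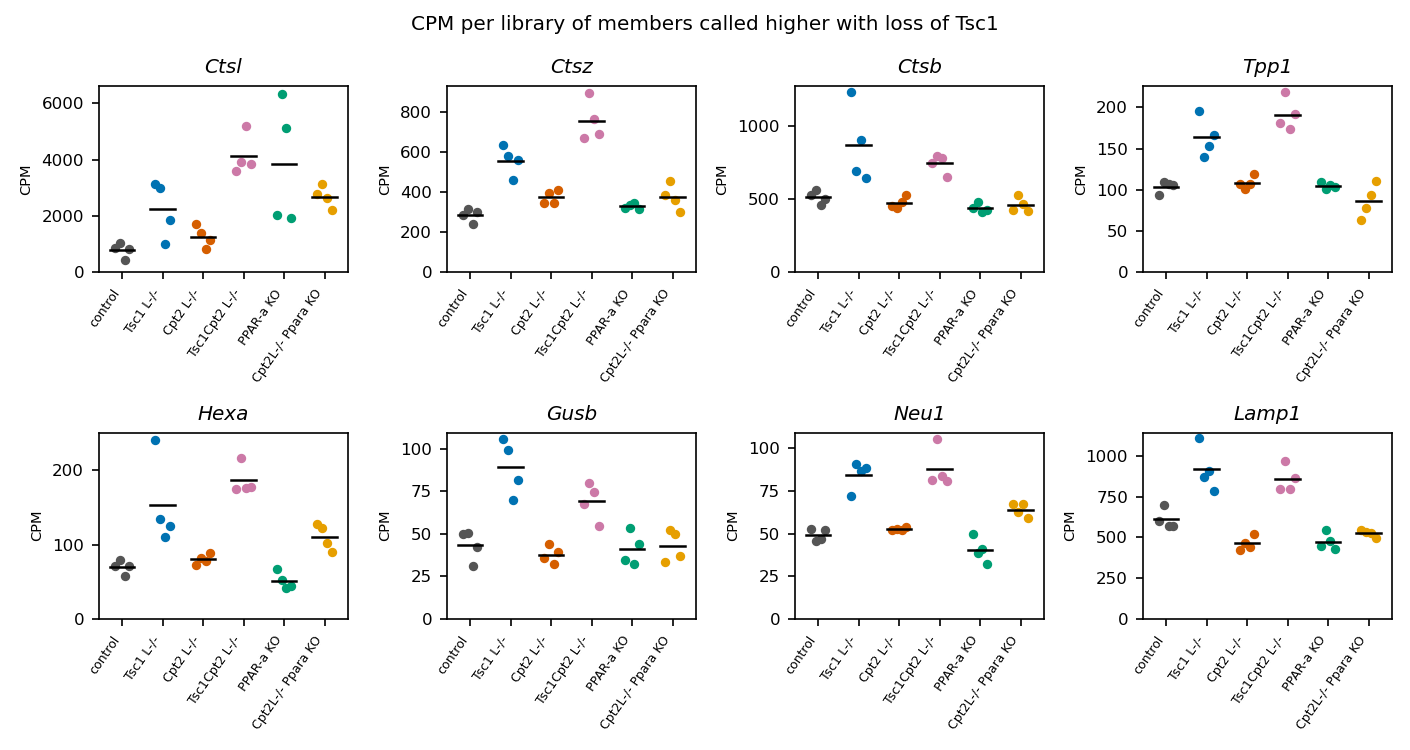
CPM per library (points, linear axis from 0) and group mean (bars) of 8 members called higher in both comparisons for loss of Tsc1, in the 6 groups with 4 libraries each. Tsc1 L-/- livers stood above control livers and DKO above Cpt2 L-/- livers without overlap, except for Ctsl in Tsc1 L-/- livers, and Ctsl was also high in both groups without Ppara.

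Of 11 glycosidases, 4 were called higher in Tsc1 L-/- against control livers and 5 in DKO against Cpt2 L-/- livers. Hexa, the alpha subunit of beta-hexosaminidase, was at 70.6, 79, 58 and 70.7 CPM in control livers and 241, 135, 111 and 125 CPM in Tsc1 L-/- livers (log2 fold change 1.13 ± 0.19 (SE), adjusted p = 0.00128, edgeR). In Cpt2 L-/- livers it was at 72.3, 81.8, 77.3 and 88.8 CPM and in DKO livers at 175, 217, 177 and 177 CPM (log2 fold change 1.24 ± 0.19 (SE), adjusted p = 0.000327, edgeR). Neither comparison showed overlap, and library 1 of Tsc1 L-/- and library 2 of DKO were the highest of their groups. Gusb, beta-glucuronidase, was at 49.7, 50.7, 31.3 and 42 CPM in control livers, 106, 99.5, 69.9 and 81.5 CPM in Tsc1 L-/- livers, 35.6, 43.8, 32.4 and 39 CPM in Cpt2 L-/- livers and 67.5, 80.1, 74.3 and 54.7 CPM in DKO livers. It rose 2.05-fold (adjusted p = 0.00103) and 1.86-fold (adjusted p = 0.00171, edgeR). Neu1, which removes sialic acid, was at 52.6, 45.4, 47 and 51.8 CPM in control livers and 71.9, 90.8, 86.5 and 88.7 CPM in Tsc1 L-/- livers. Its levels were 51.9, 52.8, 51.9 and 54 CPM in Cpt2 L-/- livers and 81.2, 106, 84 and 80.9 CPM in DKO livers, so every library without Tsc1 lay above every library of the matched group. The fold changes of Neu1 were 1.71 (adjusted p = 0.000224) and 1.69 (adjusted p = 0.000168, edgeR). Gla, alpha-galactosidase A, which is missing in Fabry disease, was low, at 3.74, 7.09, 4.73 and 4.34 CPM in control livers and 10.5, 7.87, 9.21 and 8.16 CPM in Tsc1 L-/- livers. It was at 4.54, 4.12, 4.14 and 6.48 CPM in Cpt2 L-/- livers and 9.24, 13.5, 9.85 and 7.59 CPM in DKO livers, and the groups did not overlap in either comparison. Its rise was 1.80-fold (adjusted p = 0.0270) and in DKO livers 2.11-fold (adjusted p = 0.00309, edgeR). The first call was lost when control library 1, 3 or 4 or Tsc1 L-/- library 1 was left out, with an adjusted p of up to 0.0773.

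Ppt1 was the lipid hydrolase called in both comparisons, and Gm2a and Npc2 the cofactors. Ppt1, which removes palmitate from proteins, was at 25.2, 25.9, 22.2 and 21.3 CPM in control livers and 37.5, 30.4, 39.4 and 27.6 CPM in Tsc1 L-/- livers, and at 18.6, 19.3, 15.3 and 20.4 CPM in Cpt2 L-/- livers and 31.2, 29.5, 27 and 24.1 CPM in DKO livers. The changes were 1.42-fold and 1.54-fold (adjusted p = 0.0264 and 0.00445, edgeR). The call in Tsc1 L-/- livers was lost without control library 3 or 4 or Tsc1 L-/- library 1 or 3 (adjusted p up to 0.0812). Gm2a presents the ganglioside GM2 to beta-hexosaminidase. It was at 60.9, 75.7, 63.6 and 69.6 CPM in control livers and 338, 149, 175 and 134 CPM in Tsc1 L-/- livers, the largest fold change of any member in that comparison (log2 fold change 1.56 ± 0.23 (SE), adjusted p = 0.000656, edgeR). With Cpt2 absent it was at 24.1, 30.2, 33 and 33.6 CPM and 49.1, 60.2, 40.8 and 44.3 CPM in DKO livers, so every library of these groups lay below every control library. The rise in DKO over Cpt2 L-/- livers (log2 fold change 0.70 ± 0.23 (SE), adjusted p = 0.0423, edgeR) was lost with 1 library left out, for each library of these groups except DKO library 3, with an adjusted p of up to 0.137. Npc2, which carries cholesterol out of the lysosomal lumen, was at 62.1, 75.4, 56.1 and 59.5 CPM in control livers and 103, 92, 94.3 and 85.7 CPM in Tsc1 L-/- livers. It was at 58.7, 57.4, 57.3 and 51.4 CPM in Cpt2 L-/- livers and 70.8, 86.2, 80.3 and 69.9 CPM in DKO livers, without overlap in either comparison. Npc2 rose 1.48-fold (adjusted p = 0.00435) and 1.38-fold (adjusted p = 0.00746, edgeR).

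Of the membrane proteins, Lamp1 was called in both comparisons. It was at 601, 696, 570.4 and 572 CPM in control livers and 1109, 869, 906 and 785 CPM in Tsc1 L-/- livers (log2 fold change 0.59 ± 0.13 (SE), adjusted p = 0.0110, edgeR). Its levels were 422, 467, 442 and 521 CPM in Cpt2 L-/- livers and 794, 966, 796 and 867 CPM in DKO livers (log2 fold change 0.91 ± 0.13 (SE), adjusted p = 0.000231, edgeR), with no overlap in either comparison. Lamp2, its close relative, had a log2 fold change of 0.13 ± 0.13 (SE, adjusted p = 0.635) and 0.27 ± 0.13 (SE, adjusted p = 0.173, edgeR) and was called in neither. Mcoln1, the lysosomal calcium channel TRPML1, was at 36.7, 30.8, 31.1 and 37.1 CPM in control livers and 39.2, 35.3, 62.3 and 61.8 CPM in Tsc1 L-/- livers. Those groups overlapped, and the call (log2 fold change 0.55 ± 0.16 (SE), adjusted p = 0.0468, edgeR) was lost without any 1 library of either group except Tsc1 L-/- library 1 or 2. Among the sulfatases, Galns went from 6.36, 5.13, 5.29 and 7.75 CPM to 13.3, 12.4, 8.90 and 11.7 CPM in Tsc1 L-/- livers (log2 fold change 0.91 ± 0.20 (SE), adjusted p = 0.00827, edgeR), without overlap. Arsb was called there too (log2 fold change 0.50 ± 0.13 (SE), adjusted p = 0.0309, edgeR), but not when any 1 of control libraries 1 to 3 or Tsc1 L-/- libraries 1 and 2 was left out.

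Asah1, the acid ceramidase, and Naglu, a glycosidase of heparan sulfate, were called in DKO against Cpt2 L-/- livers and not in Tsc1 L-/- against control livers. Asah1 was at 26.6 to 36.9 CPM in control livers, 28 to 37.9 CPM in Tsc1 L-/- livers, 28.4 to 33.9 CPM in Cpt2 L-/- livers and 41.3 to 50.2 CPM in DKO livers (log2 fold change 0.55 ± 0.12 (SE), adjusted p = 0.00564, edgeR). Naglu was at 28.3 to 36.5 CPM, 33.3 to 42.2 CPM, 26.9 to 34.9 CPM and 38 to 51.6 CPM in the same order of groups (log2 fold change 0.57 ± 0.12 (SE), adjusted p = 0.00356, edgeR).

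Among the 7 listed subunits of the proton pump, calls were made in DKO against Cpt2 L-/- livers and none in Tsc1 L-/- against control livers. Atp6v1a, the catalytic subunit that binds ATP, was at 59, 78, 65.4 and 74.2 CPM in control livers and 93.3, 71.2, 86.8 and 89.8 CPM in Tsc1 L-/- livers (log2 fold change 0.30 ± 0.12 (SE), adjusted p = 0.153, edgeR). It was at 60.5, 63.8, 74.1 and 80.7 CPM in Cpt2 L-/- livers and 119, 95.8, 101 and 103 CPM in DKO livers, where every DKO library was the higher (log2 fold change 0.60 ± 0.12 (SE), adjusted p = 0.00277, edgeR). Atp6v0d1, Atp6v0a1, Atp6v1h and the accessory protein Atp6ap1 rose by 0.41 to 0.48 on the log2 scale, 1.33-fold to 1.40-fold, with no overlap between the groups. Atp6v0a1 lost its call without Cpt2 L-/- library 1 or 3 and Atp6v1h without Cpt2 L-/- library 3. In Tsc1 L-/- livers the same 5 subunits had log2 fold changes of 0.064 to 0.32, none called. At an unadjusted p under 0.05, 3 pump subunits were higher and 1 lower in Tsc1 L-/- livers, and DESeq2 called 1 higher. These counts cover the 7 listed subunits only. Of 13 further pump genes tested, edgeR called 5 higher and none lower in Tsc1 L-/- livers.

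The effect of losing Tsc1 was tested for a difference between the backgrounds. By edgeR none of the 51 members passed the interaction test, against 2.38% of all genes (1.09% with a more positive and 1.28% with a more negative log2 change without Cpt2). At an unadjusted p under 0.05, the log2 change without Cpt2 was more positive for 4 members and more negative for 6. DESeq2 called 1 member, Cd68, where it called 5.51% of all genes. The 10 included Cd63 (log2 difference 1.74 ± 0.60, SE), Cd68 (1.33 ± 0.46, SE) and Gm2a (-0.85 ± 0.32, SE), with adjusted p-values of 0.143, 0.140 and 0.162 by edgeR.

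In livers without Cpt2 the calls were split between higher and lower members. In Cpt2 L-/- against control livers 12 members were higher and 13 lower, against 31.0% of all genes called (16.2% higher and 14.9% lower), and in DKO against Tsc1 L-/- livers 12 were higher and 13 lower, against 32.2% (16.9% higher and 15.2% lower). The share of members called was 25 of 51 in each. With all 24 libraries in 1 fit the second count was 16, where 21.3% of all genes were called. By class, the first comparison called 6 hydrolases higher and 8 lower, 1 cofactor lower, 5 membrane proteins higher and 2 lower, and 1 pump subunit higher and 2 lower. The second called 7 and 8 hydrolases, 2 cofactors lower, 3 and 1 membrane proteins, and 2 and 2 pump subunits. The lower pump subunits of each include Atp6v0d2, whose call rests on few reads. The sum of the 10 hepatocyte markers was 37906 to 61026 CPM in Cpt2 L-/- livers, 4 of the 10 were lower and none higher than in control livers (unadjusted p under 0.05, 5 lower and none higher; DESeq2, 5 lower and none higher), while 4 of 8 markers of stellate cells and fibroblasts were lower and, of the 9 genes of lipid-associated macrophages, 3 were higher and 2 lower. Their part in the members' levels was not tested. In DKO against Tsc1 L-/- livers 4 of the 10 hepatocyte markers, 11 of the 14 markers of Kupffer cells and other macrophages and 1 of 7 endothelial markers were lower. Of the 9 genes of lipid-associated macrophages 3 were higher and 2 lower there. The part of these cells was not tested either. These comparisons share no library. Called higher in both were Cd63, Cd68, Cln3, Lipa, Idua, Galns, Ctsz and Atp6v1h, 8 of 12 in each. Called lower in both were Ctsc, Ctsh, Fuca1, Glb1, Ids, Gm2a, Lamp2 and Tcirg1, 8 of the 13 in each. Atp6v0d2 was also called in both and is not counted among the 8.

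**Figure D3:**
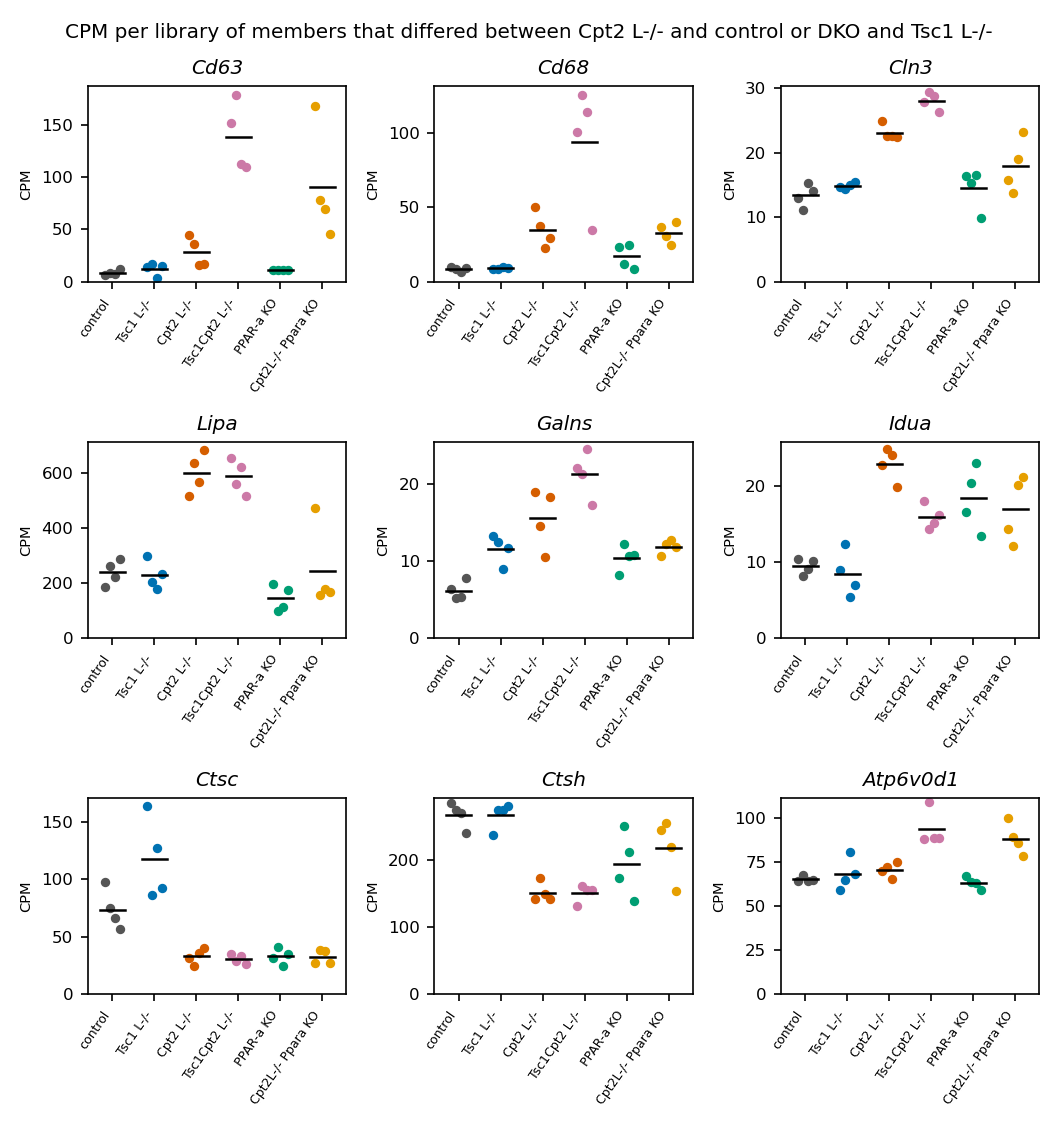
CPM per library (points, linear axis from 0) and group mean (bars) of 9 members in the 6 groups with 4 libraries each. Cd63, Cd68, Cln3, Lipa, Galns and Idua were higher, and Ctsc and Ctsh lower, in Cpt2 L-/- than in control livers and in DKO than in Tsc1 L-/- livers, while Atp6v0d1 was called in the second comparison only.

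Lipa, lysosomal acid lipase, releases cholesterol and fatty acids from lipoprotein and droplet lipid. It was at 185, 260.2, 222 and 289 CPM in control livers and 518, 639, 569 and 685 CPM in Cpt2 L-/- livers, and at 299.9, 202, 179 and 233 CPM in Tsc1 L-/- livers and 655, 562, 623 and 518 CPM in DKO livers. No library without Cpt2 overlapped a library of its matched group, and the rise was 2.47-fold (log2 fold change 1.31 ± 0.17 (SE), adjusted p = 1.58e-05) and 2.57-fold (log2 fold change 1.36 ± 0.17 (SE), adjusted p = 1.03e-05, edgeR). Lipa was not called in either comparison for loss of Tsc1 (log2 fold change -0.066 ± 0.16 and -0.013 ± 0.16, SE, adjusted p = 0.874 and 0.968, edgeR). Idua, which removes iduronic acid from heparan and dermatan sulfate, was at 10.3, 8.17, 9.04 and 10.2 CPM in control livers and 22.8, 24.8, 24 and 19.9 CPM in Cpt2 L-/- livers. It was at 8.89, 12.3, 5.43 and 6.92 CPM in Tsc1 L-/- livers and 18, 14.4, 15.1 and 16.2 CPM in DKO livers, again without overlap (adjusted p = 7.15e-05 and 0.00113, edgeR). Galns, a sulfatase of keratan and chondroitin sulfate, was at 19, 14.6, 10.5 and 18.3 CPM in Cpt2 L-/- livers and 22.1, 21.4, 24.5 and 17.3 CPM in DKO livers. Its rise was 2.49-fold over control (adjusted p = 6.53e-05) and 1.83-fold over Tsc1 L-/- livers (adjusted p = 0.00168, edgeR). Cln3, a membrane protein mutated in juvenile Batten disease, was at 13, 11.2, 15.3 and 14.1 CPM in control livers and 24.9, 22.7, 22.6 and 22.4 CPM in Cpt2 L-/- livers, and at 14.8, 14.4, 15 and 15.5 CPM and 27.9, 29.4, 28.8 and 26.3 CPM with Tsc1 absent. The log2 fold changes of Cln3 were 0.76 ± 0.11 (SE, adjusted p = 3.63e-05) and 0.91 ± 0.11 (SE, adjusted p = 6.39e-06, edgeR).

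The largest rises were those of Cd63, a tetraspanin of late endosomes, and Cd68, a glycoprotein abundant in macrophage lysosomes. Cd63 was at 6.48, 8.51, 7.04 and 12 CPM in control livers, 13.7, 16.9, 3.79 and 15.5 CPM in Tsc1 L-/- livers, 45.1, 35.9, 16.2 and 16.8 CPM in Cpt2 L-/- livers and 152, 178, 112 and 109.5 CPM in DKO livers. The DKO libraries all lay above the Cpt2 L-/- libraries, which all lay above the control libraries. The log2 fold change of Cd63 was 1.72 ± 0.44 (SE, adjusted p = 0.00855) in Cpt2 L-/- over control, 3.46 ± 0.45 (SE, adjusted p = 7.3e-05) in DKO over Tsc1 L-/- and 2.29 ± 0.43 (SE, adjusted p = 0.00301, edgeR) in DKO over Cpt2 L-/- livers. Cd68 was at 9.69, 8.51, 6.32 and 9.25 CPM in control livers, 8.71, 8.75, 9.66 and 9.10 CPM in Tsc1 L-/- livers, 50.6, 37.1, 22.6 and 29.5 CPM in Cpt2 L-/- livers and 100.4, 126, 114 and 34.6 CPM in DKO livers. DKO library 4 stood far below the other DKO libraries and overlapped the Cpt2 L-/- group. The log2 fold change of Cd68 was 2.03 ± 0.34 (SE, adjusted p = 0.000390) over control, 3.36 ± 0.35 (SE, adjusted p = 7.79e-06) in DKO over Tsc1 L-/- and 1.43 ± 0.32 (SE, adjusted p = 0.00722, edgeR) in DKO over Cpt2 L-/- livers.

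The lists of macrophage genes moved in different ways beside Cd63 and Cd68. Of 14 markers of Kupffer cells and other macrophages, such as Adgre1, Clec4f and C1qa, edgeR and DESeq2 called none in Cpt2 L-/- against control livers, where none had an unadjusted p under 0.05, and 13 were lower in DKO than in control livers. None of the 14 was removed by the filter on low counts. Their summed level was 414 to 665 CPM in control livers, 328 to 616 CPM in Cpt2 L-/- livers and 217 to 333 CPM in DKO livers. A list of 9 genes of lipid-associated macrophages summed to 43.3 to 51.9 CPM in control livers, 52.1 to 93.0 CPM in Cpt2 L-/- livers and 122 to 245 CPM in DKO livers. Against control livers 3 of those 9 were higher and 2 lower in Cpt2 L-/- livers, and 3 higher and 1 lower in DKO livers. The rise of this sum was led by Gpnmb, which was at 1.70 ± 0.630 CPM (SD, n = 4) in control, 20.4 ± 6.68 CPM in Cpt2 L-/- livers and 95.4 ± 28.8 CPM in DKO livers. Trem2, which defines these cells, had a log2 fold change of -1.35 ± 0.46 (SE, adjusted p = 0.0302) in Cpt2 L-/- livers and -1.10 ± 0.45 (SE, adjusted p = 0.0609, edgeR) in DKO livers against control. The part of these cells in the levels of Cd63 and Cd68 was not tested.

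Atp6v0d2 fell the most of the 51 genes, from 2.20, 4.66, 1.85 and 4.63 CPM in control to 0.160, 0.380, 0.0591 and 0.114 CPM in Cpt2 L-/- livers and 0.228, 0.158, 0.130 and 0 CPM in DKO livers, with 1.94, 2.58, 1.33 and 0.810 CPM in Tsc1 L-/- livers. The read counts were low, 222 in the 4 control libraries together, 12 in Cpt2 L-/- and 9 in DKO livers, where library 4 had 0, a count that allows up to 3 reads. The control level was 17.9-fold that of Cpt2 L-/- livers (exact 95% interval 10.0 to 35.1) and 23.0-fold that of DKO livers (11.9 to 51), intervals that cover counting error only. Atp6v0d2 passed the filter on low counts through the groups in which it was high, as no library without Cpt2 reached 10 reads in these 4 groups, so its call is not given as support. The sum of the 14 markers of Kupffer cells and other macrophages was also lower in DKO livers, none of these 14 was called in Cpt2 L-/- livers, and the sum of the 9 genes of lipid-associated macrophages was higher in DKO livers. Their part in this fall was not tested. Ctsc, dipeptidyl peptidase I, was at 97.6, 74.6, 66 and 56.4 CPM in control livers and 164, 86.7, 128 and 92.8 CPM in Tsc1 L-/- livers, against 31.5, 24.4, 35.6 and 40.1 CPM in Cpt2 L-/- livers and 34.6, 28.3, 33.3 and 26.4 CPM in DKO livers. Every library without Cpt2 lay below every library with it in these 4 groups, with log2 fold changes of -1.19 ± 0.21 (SE, adjusted p = 0.000378) and -1.95 ± 0.21 (SE, adjusted p = 5.09e-06, edgeR). Ctsh, an aminopeptidase, had the same order, at 241 to 285 CPM in control livers and 237 to 279.9 CPM in Tsc1 L-/- livers against 141 to 173 CPM and 131 to 161 CPM. It fell by 0.85 and 0.83 on the log2 scale (adjusted p = 1.76e-05 and 2.2e-05, edgeR). Lamp2, needed for fusion of autophagosomes with lysosomes, fell by 0.62 (adjusted p = 0.00189) and 0.48 (adjusted p = 0.0101, edgeR) on the same scale. Lamp1 and Ppt1 were lower in Cpt2 L-/- than in control livers by 0.43 and 0.39 on the log2 scale and lost these calls with single libraries left out (adjusted p up to 0.0890 and 0.146, edgeR).

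Livers without both genes held more called members than either single deletion. In DKO against control livers 26 of the 51 were higher and 8 lower, against 36.4% of all genes called (19.3% higher and 17.1% lower). The calls comprised 16 hydrolases higher and 6 lower, no cofactor in either direction, 5 membrane proteins higher and 1 lower, and 5 pump subunits higher and 1 lower, which was Atp6v0d2 with the limit of its low counts given above. DESeq2 also called no cofactor, and at an unadjusted p under 0.05 there was 1 higher and 1 lower. Ctsl was 5.17-fold higher (log2 fold change 2.37 ± 0.34 (SE), adjusted p = 4.93e-05), Galns 3.45-fold (log2 fold change 1.78 ± 0.19 (SE), adjusted p = 2.44e-06), Hexa 2.66-fold (log2 fold change 1.41 ± 0.19 (SE), adjusted p = 1.8e-05) and Ctsz 2.63-fold (log2 fold change 1.40 ± 0.14 (SE), adjusted p = 9.31e-07, edgeR), each without overlap. Galns was at 5.13 to 7.75 CPM in control livers, 8.90 to 13.3 CPM in Tsc1 L-/- livers, 10.5 to 19 CPM in Cpt2 L-/- livers and 17.3 to 24.5 CPM in DKO livers, and was called in each single deletion as well. Cd63 was 16.1-fold and Cd68 11-fold higher (adjusted p = 2.18e-05 and 4.31e-06, edgeR). The 3 comparisons with control livers share the same 4 control libraries. Gm2a, higher without Tsc1 and lower without Cpt2, had a log2 fold change of -0.48 ± 0.23 (SE, adjusted p = 0.107, edgeR) in DKO against control livers. Ctss was lower in DKO than in control livers by 0.79 on the log2 scale (adjusted p = 0.00890, edgeR), beside the lower sum of the 14 markers of Kupffer cells and other macrophages given above. The hepatocyte markers also moved, since the sum of 10 of them was 29377 to 36852 CPM in DKO livers, and 5 of the 10 were called lower and none higher (6 lower and none higher at an unadjusted p under 0.05 and by DESeq2), and all 8 markers of stellate cells and fibroblasts and 5 of 7 markers of endothelial cells were lower. The part of these cells in the members' levels was not tested.

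**Figure D4:**
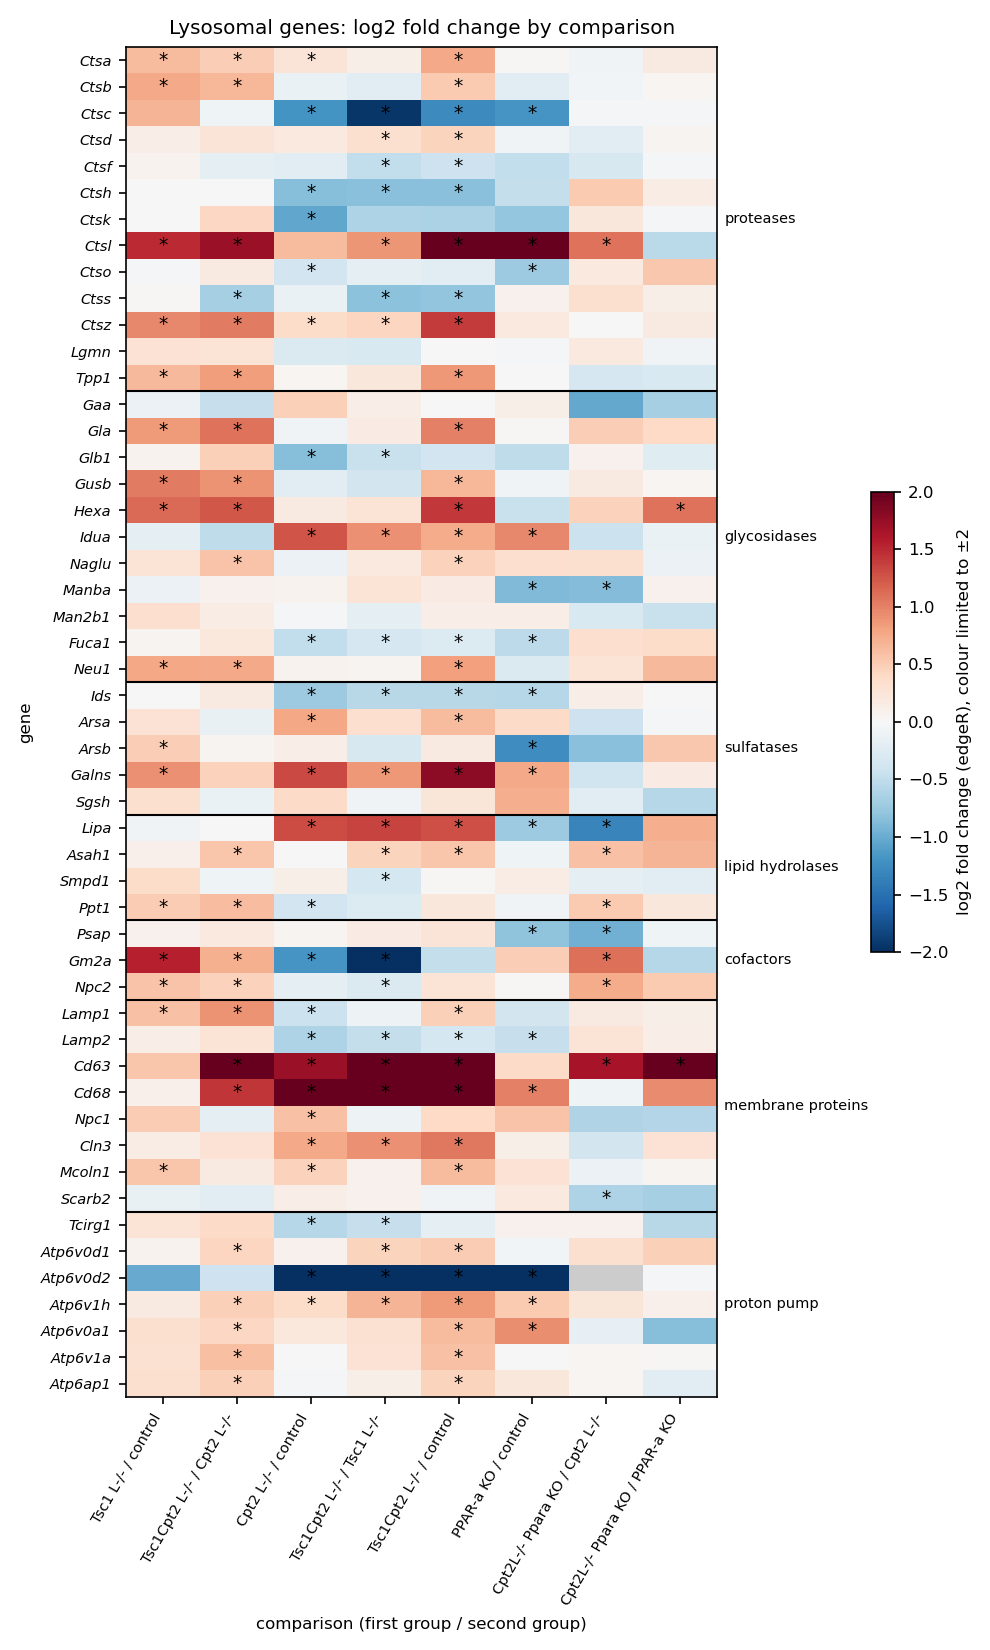
Log2 fold change (edgeR, colour limited to ±2) of the 51 genes (rows, by class) in 8 comparisons (columns), with an asterisk where the adjusted p was under 0.05 and grey where a gene was not tested. In Tsc1 L-/- against control livers 5 of 13 proteases and 4 of 11 glycosidases were called higher, the pump subunits are called mainly in the DKO columns, and Cd63, Cd68, Ctsl and Atp6v0d2 pass the colour limit in DKO against control livers.

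Without Ppara, the acid lipase Lipa, the glycosidase Manba and the saposin precursor Psap fell and Ctsl rose, with and without Cpt2. In PPAR-a KO against control livers 6 members were higher and 10 lower, against 27.5% of all 12955 genes tested in a fit of these 8 libraries (14.8% higher and 12.7% lower). The hydrolases numbered 3 higher and 7 lower, the cofactors 1 lower, the membrane proteins 1 and 1, and the pump subunits 2 and 1, the latter Atp6v0d2 with its few reads. In Cpt2L-/- Ppara KO against Cpt2 L-/- livers, which share no library with the first pair, 6 members were higher and 4 lower of 50 tested, against 13.0% of all genes (6.88% higher and 6.10% lower). Lipa, Manba and Psap were called lower in both comparisons, 3 of 10 and 3 of 4, and Ctsl higher in both, 1 of 6 in each. The other member lower in the second comparison was Scarb2. The first count fell to 10 without control library 3, where 18.8% of all genes were called. The second was 5, 4, 2 and 2 without Cpt2 L-/- library 1, 2, 3 and 4 in turn, 1 without Cpt2L-/- Ppara KO library 2, and 13 without library 1 of that group. Calls over all genes moved as well, from 13.0% to 6.37%, 7.23%, 4.75% and 4.84% without Cpt2 L-/- library 1, 2, 3 and 4 and 5.17% without Cpt2L-/- Ppara KO library 2, and to 2364 of 13155 genes without library 1 of that group.

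Psap was at 833, 826, 682 and 750.4 CPM in control livers and 439, 476, 495 and 367 CPM in PPAR-a KO livers, and at 748, 822, 914 and 795 CPM in Cpt2 L-/- livers and 312, 415, 499 and 469.6 CPM in Cpt2L-/- Ppara KO livers. Neither pair overlapped, and the log2 fold changes were -0.80 ± 0.17 (SE, adjusted p = 0.00662) and -0.96 ± 0.21 (SE, adjusted p = 0.0175, edgeR). The second call was lost without Cpt2 L-/- library 3 or 4 or Cpt2L-/- Ppara KO library 2. Manba, beta-mannosidase, was at 23.8, 25, 24.9 and 28.3 CPM in control livers and 19.5, 9.11, 12.2 and 15 CPM in PPAR-a KO livers, and at 26.5, 22.2, 24 and 36.4 CPM and 16.2, 12.8, 14.8 and 16.1 CPM in the livers labelled as lacking Cpt2. It also fell without overlap (adjusted p = 0.0125 and 0.0153, edgeR), the second call being lost without Cpt2L-/- Ppara KO library 2. Lipa was at 196, 98.7, 111 and 174 CPM in PPAR-a KO and 474, 155, 179 and 167 CPM in Cpt2L-/- Ppara KO livers, where library 1 stood far above the other 3. The PPAR-a KO libraries overlapped the control libraries, and no Cpt2L-/- Ppara KO library reached the Cpt2 L-/- libraries. Its log2 fold change was -0.73 ± 0.24 (SE, adjusted p = 0.0433) against control and -1.32 ± 0.35 (SE, adjusted p = 0.0345, edgeR) against Cpt2 L-/- livers. The first was lost without control library 2, 3 or 4 or PPAR-a KO library 2 or 3. The second was lost without any 1 library of Cpt2 L-/- livers or without Cpt2L-/- Ppara KO library 2 or 3, while without library 1 it was -1.85 (adjusted p = 2.13e-05, edgeR). Ctsl was at 2045, 6316, 5102 and 1943 CPM in PPAR-a KO livers, where 2 libraries were far above the others, and at 2775, 3133, 2630.3 and 2214 CPM in Cpt2L-/- Ppara KO livers. It was 4.87-fold higher than in control (adjusted p = 0.00457) and 2.12-fold higher than in Cpt2 L-/- livers (adjusted p = 0.0268, edgeR), the latter lost without Cpt2 L-/- library 2, 3 or 4 or Cpt2L-/- Ppara KO library 2.

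**Figure D5:**
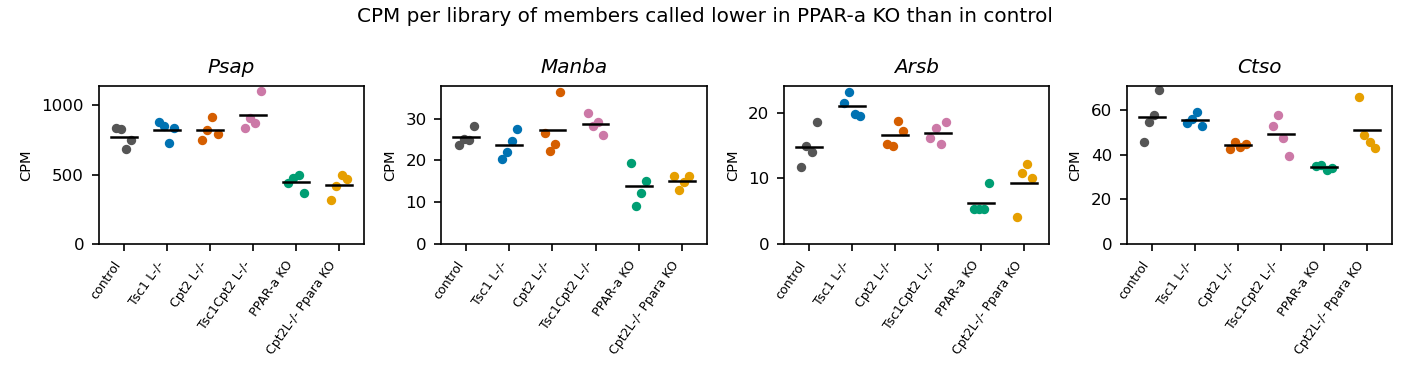
CPM per library (points, linear axis from 0) and group mean (bars) of 4 members called lower in PPAR-a KO than in control livers, in the 6 groups with 4 libraries each. The PPAR-a KO libraries lay below the control libraries for Psap, Manba, Arsb and Ctso, and Psap and Manba were also called lower in Cpt2L-/- Ppara KO than in Cpt2 L-/- livers.

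Other members were called in 1 of the pairs. Arsb, a sulfatase of dermatan and chondroitin sulfate, was at 11.7, 15, 14 and 18.6 CPM in control livers and 5.25, 5.35, 5.36 and 9.20 CPM in PPAR-a KO livers (log2 fold change -1.24 ± 0.24 (SE), adjusted p = 0.00493, edgeR). Ctsc was at 31.3, 40.9, 24 and 34.7 CPM and Atp6v0d2 at 1.14, 0.602, 0.412 and 0.618 CPM in PPAR-a KO livers, lower than in control livers (adjusted p = 0.00412 for Ctsc, edgeR). The 14 macrophage markers summed to 445 to 542 CPM there, and 3 of the 14 were lower and none higher (6 lower and none higher at an unadjusted p under 0.05; 5 lower and none higher by DESeq2), and their part in these levels was not tested. Cd68 was at 23.3, 11.7, 24.4 and 8.72 CPM, higher than in control livers by a log2 fold change of 1.002 ± 0.32 (SE, adjusted p = 0.0397, edgeR) with overlap of the groups, and its call was lost without any 1 library except PPAR-a KO library 2 or 4. Of 8 genes of lipid-associated macrophages tested there, 3 were higher and none lower, with a sum over the 9 of 48.6 to 144 CPM in PPAR-a KO livers, and their part in the level of Cd68 was not tested. Ctso was at 45.7, 54.6, 57.9 and 69 CPM in control livers and 35, 35.5, 33.2 and 33.9 CPM in PPAR-a KO livers (adjusted p = 0.00616, edgeR). Idua and Atp6v0a1 rose 1.94-fold and 1.90-fold in PPAR-a KO livers (adjusted p = 0.00695 and 0.00342, edgeR). Gm2a was at 50.3, 87.5, 73.9 and 48 CPM in Cpt2L-/- Ppara KO livers, above the Cpt2 L-/- libraries (log2 fold change 1.10 ± 0.22 (SE), adjusted p = 0.0113, edgeR), the 1 call in that comparison that held with each library left out in turn. Cd63 was at 168, 77.9, 69.8 and 46.1 CPM there and was higher than in Cpt2 L-/- livers (log2 fold change 1.65 ± 0.44 (SE), adjusted p = 0.0343, edgeR), with an adjusted p of 0.0575 without library 1 and up to 0.108 without other single libraries. In the same comparison 3 of the 9 genes of lipid-associated macrophages were higher and none lower, and their part in the level of Cd63 was not tested.

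In livers without Ppara, the number of members called for loss of Cpt2 depended on the fit. In Cpt2L-/- Ppara KO against PPAR-a KO livers edgeR called Cd63 and Hexa higher and no member lower, against 0.868% of all genes (0.462% higher and 0.407% lower). At an unadjusted p under 0.05, 7 members were higher and 2 lower, and DESeq2 called 5 higher and none lower, where it called 15.9% of all genes. With all 24 libraries in 1 fit, edgeR called 11 members and 30.8% of all genes. Cd63 was at 11.6, 10.8, 10.9 and 11.4 CPM in PPAR-a KO livers, 7.99-fold below the other group (adjusted p = 0.0142, edgeR). Hexa was at 67.2, 51.7, 41.5 and 44.1 CPM in PPAR-a KO and 128, 122, 102 and 90.5 CPM in Cpt2L-/- Ppara KO livers (adjusted p = 0.0474, edgeR). Each call was lost with single libraries left out. The count went to 0 without PPAR-a KO library 3 or 4, where 0.0154% and 0.0383% of all genes were called. It went to 1 without PPAR-a KO library 2 (0.0688%) or Cpt2L-/- Ppara KO library 1, 2 or 3 (0.0919%, 0.138% and 0.0155%). Without PPAR-a KO library 1 or Cpt2L-/- Ppara KO library 4, 5.59% and 4.92% of all genes were called.

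Whether the effect of Cpt2 differed with Ppara was tested as an interaction over the 16 libraries of these 4 groups. It passed for 16 members, 11 in which the effect of Cpt2 was more positive without Ppara and 5 in which it was more negative, against 24.0% of all 13615 genes (12.0% in each direction). The largest difference was that of Atp6v0d2, at 0.290, 1.11, 0.657 and 0.746 CPM in Cpt2L-/- Ppara KO livers, which fell in Cpt2 L-/- against control livers and was low in both groups without Ppara, with 48 reads in PPAR-a KO and 47 in Cpt2L-/- Ppara KO livers (log2 difference 4.19 ± 0.76, SE, edgeR, with the limit from the filter given above). Ctsc followed the same order (1.16 ± 0.30, SE, adjusted p = 0.0115, edgeR), at 27.1, 38.5, 37.2 and 27.2 CPM in Cpt2L-/- Ppara KO livers. Idua and Galns rose in Cpt2 L-/- over control livers and had log2 fold changes of -0.13 and 0.16 without Ppara, and their differences were -1.38 ± 0.29 (SE, adjusted p = 0.00355) and -1.15 ± 0.29 (SE, adjusted p = 0.0107, edgeR). Both were also called higher in PPAR-a KO than in control livers. Idua was at 13.4 to 23.1 CPM in PPAR-a KO and 12.1 to 21.2 CPM in Cpt2L-/- Ppara KO livers. Galns was at 8.13 to 12.2 CPM and 10.6 to 12.7 CPM in the same order. Npc1, which exports cholesterol together with Npc2, was at 149.9, 199, 157 and 204 CPM in control livers, 227, 278, 279 and 299.7 CPM in Cpt2 L-/- livers, 204, 209.5, 258 and 387 CPM in PPAR-a KO and 119, 181, 207 and 208 CPM in Cpt2L-/- Ppara KO livers (log2 difference -1.17 ± 0.32, SE, adjusted p = 0.0141, edgeR). Gaa, the glucosidase that degrades lysosomal glycogen, was at 167, 194, 147 and 169 CPM, 196, 206, 285 and 269 CPM, 161, 189, 193 and 192 CPM and 52.6, 117, 144 and 158 CPM in the same order of groups (log2 difference -1.13 ± 0.36, SE, adjusted p = 0.0297, edgeR). Its last group was lowest in library 1, without which the log2 difference was -0.88 (adjusted p = 0.0132, edgeR), and the call was lost without library 2. The count of 16 fell to 10 without Cpt2 L-/- library 3 (18.1% of all genes called) or PPAR-a KO library 3 (18.4%). It fell to 9 without Cpt2L-/- Ppara KO library 2 (19.3%).

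Over the 8 comparisons of 2 groups, edgeR called the protease Lgmn, the glycosidases Gaa and Man2b1 and the sulfatase Sgsh in none. DESeq2 called Gaa lower in Cpt2L-/- Ppara KO against Cpt2 L-/- livers, and Man2b1 in Tsc1 L-/- livers and Sgsh in PPAR-a KO livers higher than in control. Ctsl and Cd63 were each called in 6, always as higher. In the groups of the Tsc1 and Cpt2 deletions Man2b1, an alpha-mannosidase, was at 115 to 135 CPM in control livers, 151 to 159 CPM in Tsc1 L-/- livers, 104 to 143 CPM in Cpt2 L-/- livers and 129 to 143 CPM in DKO livers. The Tsc1 L-/- libraries lay above the control libraries for Man2b1, with an adjusted p of 0.0632 (edgeR). Lgmn, the asparaginyl endopeptidase that processes cathepsins, was at 62 to 82, 78.4 to 100.4, 45.4 to 74.3 and 66.8 to 81.4 CPM in the same order.

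Other genes of the lysosome, in 4 lists of 106 genes apart from the 51, were counted in the same comparisons. Of 96 tested, 17 were higher and 2 lower in Tsc1 L-/- against control livers (6.64% of all genes called) and 35 and 5 in DKO against Cpt2 L-/- livers (18.3%). For loss of Cpt2, 23 were higher and 12 lower against control livers (31.0%) and 30 and 10 in DKO against Tsc1 L-/- livers (32.2%). In DKO against control livers 52 were higher and 8 lower (36.4%). In PPAR-a KO against control livers 8 were higher and 10 lower of 94 tested (27.5%), and in Cpt2L-/- Ppara KO against Cpt2 L-/- livers 6 and 8 of 95 (13.0%). In Cpt2L-/- Ppara KO against PPAR-a KO livers edgeR called none (0.868%), while DESeq2, which called 15.9% of all genes, called some. The median log2 fold change of these other genes was 0.20 in Tsc1 L-/- livers and 0.37 in DKO livers against control, with 0.01 and 0.02 over all genes. Acp5, an acid phosphatase, and the membrane protein Mfsd1 rose 1.58-fold and 1.61-fold in Tsc1 L-/- livers (adjusted p = 0.00114 and 0.000707), and 1.91-fold and 1.87-fold in DKO over Cpt2 L-/- livers (adjusted p = 3.71e-05 and 4.49e-05, edgeR). Of 13 further pump genes tested, 5 were higher in Tsc1 L-/- livers, 8 in DKO over Cpt2 L-/- and 10 in DKO over control livers, and none was lower in these 3. Atp6v0b, a subunit of the membrane rotor of the pump, rose in both (log2 fold change 0.56 ± 0.14 and 1.06 ± 0.14, SE, adjusted p = 0.0226 and 0.000125, edgeR).

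Transcripts of the factors that bind CACGTG were called in few comparisons. Tfeb was at 12.6 ± 2.29 CPM (SD, n = 4) in control, 14.3 ± 3.89 CPM in Tsc1 L-/- livers, 10.7 ± 1.01 CPM in Cpt2 L-/- livers and 9.98 ± 2.64 CPM in DKO livers, and edgeR called it in none of the 5 comparisons between these 4 groups, while DESeq2 called it lower in DKO than in Tsc1 L-/- livers (log2 fold change -0.52 ± 0.21 (SE), adjusted p = 0.0618, edgeR), as edgeR did without Tsc1 L-/- library 1 or DKO library 2. Tfe3 was lower in DKO than in Cpt2 L-/- livers (log2 fold change -0.43 ± 0.14 (SE), adjusted p = 0.0398, edgeR), a call lost under the replicate block, without the filter, with all 24 libraries in 1 fit and with single libraries left out (adjusted p up to 0.129). In PPAR-a KO against control livers Tfeb was lower (log2 fold change -0.99 ± 0.28 (SE), adjusted p = 0.0256, edgeR) and Tfe3 higher (log2 fold change 0.66 ± 0.18 (SE), adjusted p = 0.0241, edgeR), and both calls were lost with single libraries left out (adjusted p up to 0.0733 and 0.0750). Transcript levels do not show where these proteins were or whether they were phosphorylated.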

How the data were processed

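Liver RNA of 24 libraries (6 genotypes, 4 libraries each) was sequenced as 75-base single reads. The authors deposited 1 table of read counts and 1 of FPKM per gene and library. The submitters' processing notes name Bowtie 0.12.2, TopHat, STAR 2.5, STAR-Fusion, HTSeq 0.6.1, DESeq2, edgeR and the builds mm8 and mm9 without saying which made the tables, whose coordinates match GRCm38. The strand setting of the counting is not given in the sources used here. FPKM recomputed from the deposited counts and gene lengths matched within an absolute difference of 5e-06 FPKM.

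The members and lists were chosen with earlier results of these data known. Groups were taken from the genotype labels. Counts were tested with edgeR 4.0.16 (quasi-likelihood, TMM; R 4.3.3, limma 3.58.1) after filterByExpr (minimum count 10, total 15), with Benjamini-Hochberg adjustment over all genes tested and a threshold of 0.05. The control, Tsc1 L-/-, Cpt2 L-/- and DKO libraries shared 1 fit of 16. Comparisons with Ppara used fits of 8 libraries and their interaction a fit of 16. CPM were scaled by TMM over all 24 libraries. Levels between genes were compared in FPKM only. DESeq2 1.42.0 was an alternative, as were another size factor, no filter, all 24 libraries in 1 fit, the replicate number as a block and each library left out. Figures were drawn with Python 3.11.15 and matplotlib 3.10.9, and scipy 1.17.1 gave the exact intervals. The scripts were tested on simulated data first.

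Values in every library were given for members called in both comparisons for loss of Tsc1, for up to 6 called members with the largest change in each other comparison and for up to 6 in an interaction. Other members were named after their values were seen. The 36 pairs of libraries within groups differed beyond sampling noise (chi-square per degree of freedom at least 24.1). Of the 51 members, 16 share exon bases with another annotated gene, 8 of them at least 10% (Arsa, Arsb, Ctsa, Ctsb, Ctsd, Ctsl, Hexa and Sgsh), with a gene on the opposite strand except for Ctsd, whose partner is on the same strand. Reads from these bases cannot be told apart in the counts.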

Additional observations from a re-analysis of the deposited data

Results flagged for a closer look

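In 6 of 150 groups of 4 libraries examined, 1 library stood apart from the other 3, where chance gives about 1 in 20. These were PPAR-a KO library 4 for Arsb (9.20 CPM) and PPAR-a KO library 1 for Gaa (161 CPM), DKO library 2 for Ctsa (257 CPM), Hexa (217 CPM) and Neu1 (106 CPM), and Cpt2L-/- Ppara KO library 1 for Lipa (474 CPM).

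The log2 change with Cpt2 differed between livers with and without Ppara for 16 members, Atp6v0d2 among them, by edgeR's interaction test, against 24.0% of all genes. The count was 9 without Cpt2L-/- Ppara KO library 2, where 19.3% of all genes were called. The log2 change was more positive without Ppara for Ctsc (1.16), Ctsh (1.004), Ctso (0.93), Hexa (0.92), Fuca1 (0.86), Lamp2 (0.75), Ids (0.71), Asah1 (0.68), Ppt1 (0.61) and Neu1 (0.58). It was more negative without Ppara for Idua (-1.38), Npc1 (-1.17), Galns (-1.15), Gaa (-1.13) and Atp6v0a1 (-1.07). Atp6v0d2 (4.19, more positive without Ppara) passed the filter on low counts through the groups in which it was high and had 12 reads in the 4 Cpt2 L-/- libraries together, so its test is not given as support.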

How the results depend on the processing

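No called member changed direction under any alternative that was run. Of 167 calls over all comparisons, 162 kept their side of the threshold with DESeq2's size factors in edgeR, 145 without the filter on low counts, 167 with DESeq2, 138 with all 24 libraries in 1 fit and 110 with each library left out in turn. The count of called members in DKO against Tsc1 L-/- livers was 16 with all 24 libraries in 1 fit (21.3% of all genes), in place of 25 (32.2%). In Cpt2L-/- Ppara KO against PPAR-a KO livers it was 5 with DESeq2 (15.9% of all genes) and 11 with all 24 libraries (30.8%), in place of 2 (0.868%), and DESeq2 called 1 member in the interaction of Tsc1 and Cpt2. With single libraries left out the counts ranged from 13 to 17 for Tsc1 L-/- and from 18 to 23 for Cpt2 L-/- against control, from 30 to 32 for DKO against control, from 20 to 23 for DKO against Cpt2 L-/- and from 18 to 24 for DKO against Tsc1 L-/- livers. They ranged from 0 to 1 for the interaction of Tsc1 and Cpt2 (1.08% to 2.91%) and from 10 to 17 for PPAR-a KO against control (17.6% to 31.7%). The range was 1 to 13 for Cpt2L-/- Ppara KO against Cpt2 L-/- (4.75% to 19.4%) and 0 to 2 for Cpt2L-/- Ppara KO against PPAR-a KO livers (0.0154% to 5.59%). For the interaction of Cpt2 and Ppara it was 9 to 19 (17.3% to 27.2%). The causes of these differences were not tested.

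Libraries with the same replicate number in different groups did not deviate together (60 correlations from -0.26 to 0.22, 25 under 0), so the numbers were not taken as pairs. With the replicate number as a block the counts were 16, 24, 32, 22 and 23 in the order of the first 5 comparisons above, 0 for the first interaction, and 12, 11, 2 and 18 for the last 4, and 153 of the 167 calls were kept. In the same order, the block called 5.92%, 29.6%, 35.0%, 17.1% and 30.6% of all genes, then 1.98%, and 22.5%, 16.7%, 7.17% and 24.3%. Changes smaller than the spread of 4 libraries a group were not detectable, and the FPKM of Atp6v0d2, Ctsk and Gla were the lowest of the 51.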
